A study of Mus musculus with 4 samples.

Results

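Patrolling monocytes of the mouse liver were taken as cells that held transcripts of Csf1r together with Ace or Treml4 and none of Ccr2. Measured counts chose them. A cell needed at least 1 unique molecular identifier (UMI, a tag that marks each captured transcript) of Csf1r, at least 1 of Ace plus Treml4, 0 of Ccr2, 0 of Flt3, Cd209a and Cd79a, and fewer than 10 of Prg4. It also needed at least 500 UMIs, at least 300 detected genes and at most 10% of UMIs from mitochondrial genes. The gate held 191 of the 26825 cells that passed the last 3 limits, out of 33198 barcodes in the series. The values of the 8 gate genes were fixed by this choice, so they are described with no test.

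Patrolling monocytes, also called non-classical monocytes, stay in the bloodstream and crawl along the inner wall of small vessels, where they take up particles and damaged material. They arise largely from classical monocytes, the Ccr2-bearing and Ly6c2-rich cells that enter inflamed tissue, and their survival depends on the nuclear receptor Nr4a1. In the liver they are found in blood within the sinusoids, next to resident Kupffer cells. Ace, angiotensin-converting enzyme, trims peptide hormones at the cell surface, Treml4 is a receptor of the Trem family that binds dead cells, Adgre4 is an adhesion receptor of myeloid cells, and Eno3 is an enolase of glycolysis best known from muscle.

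The cells came from 4 libraries, 1 per condition, of male C57BL/6J mice that were 7 weeks old when the diet began. All mice ate the FPC diet (fructose, palmitate, cholesterol and trans-fat), a model of steatotic liver disease, and no mice on ordinary chow were analysed here. P-LC24 held mice on 0.05% cholesterol for 24 weeks, P-HC24 mice on 1.25% cholesterol for 24 weeks, I-LC32 mice on 0.05% cholesterol for 32 weeks, and I-HC32 mice on 1.25% cholesterol for 24 weeks and then on 0.05% for 8 weeks. Each library pooled 12 fine-needle aspiration (FNA) biopsies, 4 from each of 3 mice, and the mice sampled at week 24 were sampled again at week 32, so P-LC24 and I-LC32 share a cohort, as do P-HC24 and I-HC32. The aspirates hold blood as well as liver cells, and enzyme digestion, red cell lysis and dead cell removal preceded capture. Values for the 4 libraries are given throughout with the week 24 libraries before those of week 32 and P-LC24 or I-LC32 before its high-cholesterol counterpart.

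The gate held 69, 63, 32 and 27 patrolling monocytes in the 4 libraries. They made up 1.34%, 0.911%, 0.431% and 0.367% of the cells that passed the limits. Both week 24 libraries thus lay above both week 32 libraries in this share, with exact Clopper-Pearson intervals of 1.05% to 1.70% in P-LC24, 0.701% to 1.16% in P-HC24, 0.295% to 0.608% in I-LC32 and 0.242% to 0.534% in I-HC32, which cover counting error only. With a mitochondrial limit of 5% in place of 10% they were 1.61%, 1.91%, 0.745% and 0.486%, which turned the order of both week 24 libraries. With 1 library per condition no test between conditions could be made, and week, mice and library handling cannot be told apart. Classical monocytes, gated in the same way with at least 1 Ccr2 UMI and 0 of Ace and Treml4, numbered 30, 59, 79 and 44. Patrolling monocytes were 69.7%, 51.6%, 28.8% and 38.0% of these 2 gates together. Cells with Ccr2 and also Ace or Treml4 fell in neither gate and numbered 49, 50, 63 and 30, and Csf1r cells with none of the 3 genes numbered 44, 31, 24 and 29. With Ly6c2 also required in classical monocytes the shares were 75.8%, 70.0%, 34.8% and 65.9%, so that I-LC32 alone stood below the others.

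**Figure D1:**
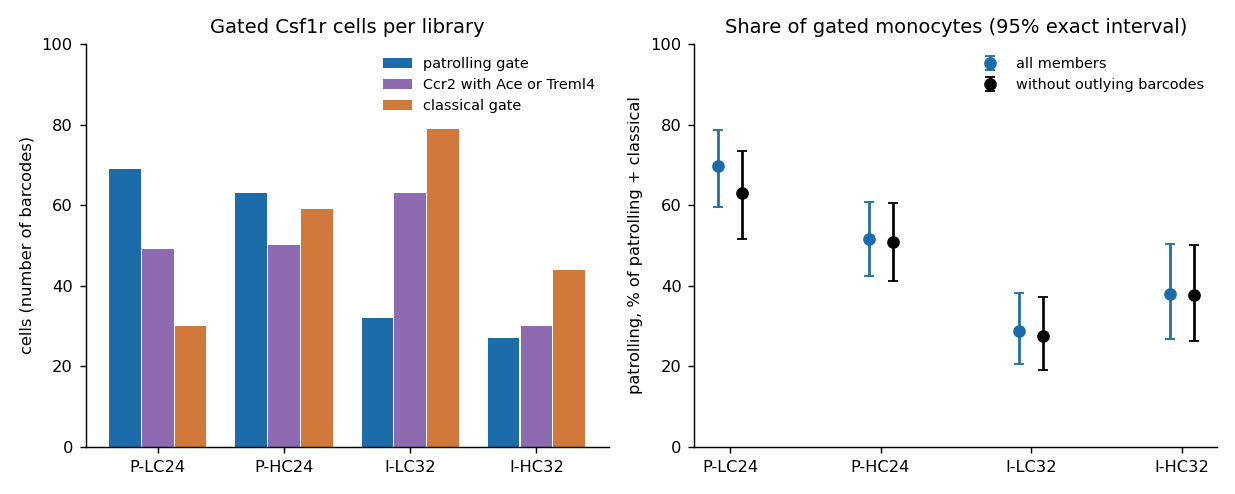
Left, cells per library (vertical axis, number of barcodes) in the patrolling gate, among cells with Ccr2 and Ace or Treml4, and in the classical gate. Right, patrolling monocytes as a percentage of patrolling plus classical monocytes with 95% exact intervals, for all cells in the gate and without 3 kinds of outlying barcode described in the text. The share is 69.7% in P-LC24 and 28.8% in I-LC32.

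The threshold lay close to many cells. Of the 191 patrolling monocytes, 137 held both Ace and Treml4, 15 held Ace alone and 39 held Treml4 alone, and 27 were just inside with exactly 1 UMI of Ace plus Treml4. Just outside were 29 of the 192 cells with Ccr2 and Ace or Treml4, which held exactly 1 Ccr2 UMI. Depth bears on a gate that needs a count of 0. Patrolling monocytes had a median of 7739, 5908, 5879.5 and 5484 UMIs per cell, against 14471.5, 15540, 12714 and 19040 in classical monocytes and 13928, 13253.5, 11399 and 12509 in cells with Ccr2 and Ace or Treml4. When every cell was thinned to 3000 UMIs before gating, the patrolling shares of monocytes were 58.0%, 49.2%, 32.7% and 45.2%. The libraries held between 50941106 and 89257239 UMIs over 7035 to 9828 barcodes, and patrolling monocytes summed to 574261, 403777, 232889 and 176347 UMIs. Between 17 and 41 barcode sequences were shared by each pair of libraries, and 0 of them were patrolling monocytes in both.

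Among the 191 cells, 3 kinds of outlying barcode stood apart, and they were defined after the data had been seen. The 16 barcodes with more than 10 UMIs of S100a8 plus S100a9 (10, 5, 0 and 1) all carried Csf3r, Cxcr2 and Retnlg, genes of neutrophils, and 14 of them lacked both Ace and Adgre4, having entered the gate through Treml4. A further 7 barcodes held more than 1% haemoglobin UMIs (3, 2, 2 and 0), and all 7 carried Adgre4. The third kind held at least 4 UMIs of Negr1, a neuronal adhesion molecule, and comprised 9 barcodes (6, 0, 3 and 0), 2 of which were also among the haemoglobin-rich ones. In all, 30 barcodes were outlying (18, 7, 4 and 1), and 161 remained.

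Most of the remaining 161 cells carried Adgre4, a marker of the label. Eno3, another such marker, was detected less often, in 47.8%, 69.8%, 62.5% and 70.4% of all members in the 4 libraries. Adgre4, which the gate did not use, had a UMI in 156 of the 161 cells and Nr4a1 in 155, while Ly6c2 had a UMI in 12. Detection of Nr4a1 does not set them apart. It had a UMI in 76.7%, 88.1%, 88.6% and 90.9% of classical monocytes and in 63.0%, 69.4%, 59.9% and 59.4% of B cells. The label did not hold for all of the 161 cells. Of the 5 without Adgre4, 3 also had no Ace and held 94, 238 and 81 UMIs of Cd74 and 26, 98 and 25 of H2-Ab1, genes of antigen presentation, with C1qb at 54, 11 and 26 UMIs, and the other 2 were shallow, with 1231 and 741 UMIs in all. Some cells with Adgre4 departed from the label as well. A cell of I-HC32 with 17213 UMIs held 388 of Lyz2, 6 of Ly6c2, 2 of Adgre4 and 0 of Cd300e and Spn. In I-LC32, cells with 16087 and 10193 UMIs held 195 and 174 of Lyz2, 4 and 3 of Ly6c2 and 0 of Cd300e. Another, with 15531 UMIs, held 129 of Cd74 and 26 of H2-Ab1. Deep cells such as these weigh more in the sums of their libraries. Among all 191 cells, Adgre4 was detected in 84.1%, 92.1%, 93.8% and 96.3%. In B cells, which should lack it, the share was 0.304%, 0.340%, 0.258% and 0.456% at median depths of 5976.5, 6997, 7276 and 9056 UMIs. Detection of Adgre4 in patrolling monocytes was thus far above the level that free RNA gave in cells of like depth. The gene was not confined to this gate. It was detected in 40.0%, 27.1%, 35.4% and 25.0% of the deeper classical monocytes and in 93.9%, 76.0%, 79.4% and 60.0% of cells with Ccr2 and Ace or Treml4. Among marker lists of other cell types, those of neutrophils and red cells reached the highest sums in patrolling monocytes. The summed level of 8 neutrophil genes was 9349, 9711, 81.6 and 834 CPM (UMIs of a gene per 1000000 UMIs of the gated cells of a library), and 103, 132, 71.8 and 87.3 CPM without the outlying barcodes. For 6 erythroid genes the sums were 34817, 19835, 29473 and 142 CPM, and 842, 335, 685 and 140 CPM without them. Of 11 Kupffer cell genes, 4 (Clec4f, Cdh5, Marco and Folr2) were at 0 in patrolling monocytes of every library, and Clec4f and Marco were at 0 in classical monocytes too. The 11 genes summed to 244, 359, 296 and 284 CPM, against 347, 180, 470 and 122 CPM in classical monocytes. Gata6 was the 1 of 9 peritoneal macrophage genes at 0, and Cd4 and Trac were the 2 of 8 T cell genes at 0. Summed NK cell markers stood at 249 CPM in I-LC32 and between 3.48 and 5.67 CPM in the other 3 libraries. The ranges over libraries of the other lists were 145 to 265 CPM for B cells, 5.67 to 71.4 for T cells, 8.59 to 19.8 for dendritic cells, 30.1 to 119 for peritoneal macrophages, 244 to 359 for Kupffer cells, 8.59 to 22.7 for platelets, 68.0 to 141 for hepatocytes, 0 to 8.59 for endothelial and stellate cells and 17.2 to 136 for mast cells and basophils. In the 4 libraries mast cell and basophil genes were at 17.4, 96.6, 17.2 and 136 CPM, against 4.66, 26.4, 4.39 and 40.2 in classical monocytes. B cell genes were at 145, 265, 167 and 255 CPM against 152, 121, 126 and 137. The part of these other cells' RNA in the results was not tested beyond leaving out the outlying barcodes.

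**Figure D2:**
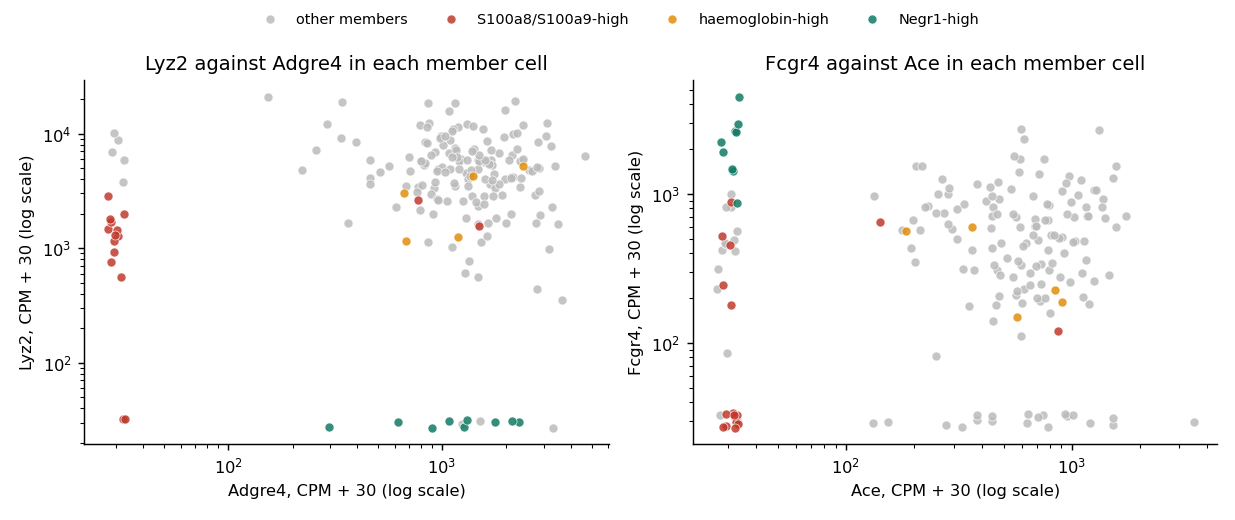
Each point is 1 of the 191 patrolling monocytes. Left, Lyz2 against Adgre4, and right, Fcgr4 against Ace, as CPM of the cell plus 30 on log axes with a small jitter. Colours mark the 16 S100a8 and S100a9-rich, 7 haemoglobin-rich (2 drawn as Negr1-rich) and 9 Negr1-rich barcodes. The Negr1-rich barcodes lie at 0 Lyz2 and 0 Ace with Adgre4 and Fcgr4 present, and 14 of the 16 S100a8 and S100a9-rich barcodes lie at 0 Adgre4.

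The 9 Negr1-rich barcodes shared several genes beside Negr1. All 9 held Adgre4, Cd300e, Fcgr4, Pou2f2 and Nr4a1, genes of the patrolling list. All 9 also held Pecam1, Cadm1 and Fcrl5, while 8 held Sox5, 8 held Itgad and 8 held C1qa. Other genes of the patrolling list were not in all 9, with Eno3 and Spn absent from several barcodes and Cx3cr1 and Pglyrp1 from most. None held Ace, Lyz2 or Ly6c2, so they too entered through Treml4. Their summed level of Negr1 was 4383 CPM against 0.871 CPM in the 161 remaining cells. Fcgr4, which encodes the Fc receptor that marks patrolling monocytes, stood at 2149 CPM against 509 CPM, Adgre4 at 1258 against 1427 CPM, and Lyz2 at 0 against 6019 CPM. The kind was chosen on Negr1 after its values were seen, so these are descriptions of 9 cells, all from the cohort kept on 0.05% cholesterol.

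The gate genes and the leading markers are positioned as follows in GRCm39, the build of the files. Ace lies on chr11:105858469-105880790, Treml4 on chr17:48571323-48582388, Adgre4 on chr17:56056984-56175274 and Eno3 on chr11:70546593-70553340, all on the plus strand and protein-coding. The windows from 250 bases before to 50 bases after the transcription start are shown for both genes that opened the gate, for 2 receptors of the patrolling list and for Ly6c2, the mark of classical monocytes. Ace and Treml4 differ between the 2 gates by choice. Adgre4, Fcgr4 and Ly6c2 were used by neither gate and differed in level. They are RefSeq sequences of another build, GRCm38.p6, at chr11:105967698-105967997 for Ace, chr17:48264045-48264344 for Treml4, chr17:55749734-55750033 for Adgre4, chr1:171018676-171018975 for Fcgr4 (all plus strand) and chr15:75111888-75112187 for Ly6c2 (minus strand). Capitals mark the letters GAGGAAGT, a core known from the myeloid factor PU.1, on either strand, and GGGCGGGG, known from Sp and Klf factors.
Ace: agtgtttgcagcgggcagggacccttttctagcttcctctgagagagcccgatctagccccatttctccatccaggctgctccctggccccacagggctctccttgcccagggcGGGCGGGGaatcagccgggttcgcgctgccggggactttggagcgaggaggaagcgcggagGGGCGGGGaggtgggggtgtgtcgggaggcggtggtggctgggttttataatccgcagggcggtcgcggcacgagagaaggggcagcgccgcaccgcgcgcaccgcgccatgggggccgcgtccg
Treml4: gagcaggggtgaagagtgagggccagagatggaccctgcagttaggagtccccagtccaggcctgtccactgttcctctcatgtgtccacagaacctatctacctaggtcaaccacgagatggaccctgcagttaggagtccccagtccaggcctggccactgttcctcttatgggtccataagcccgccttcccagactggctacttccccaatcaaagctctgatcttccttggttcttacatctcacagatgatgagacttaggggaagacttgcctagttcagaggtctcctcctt
Adgre4: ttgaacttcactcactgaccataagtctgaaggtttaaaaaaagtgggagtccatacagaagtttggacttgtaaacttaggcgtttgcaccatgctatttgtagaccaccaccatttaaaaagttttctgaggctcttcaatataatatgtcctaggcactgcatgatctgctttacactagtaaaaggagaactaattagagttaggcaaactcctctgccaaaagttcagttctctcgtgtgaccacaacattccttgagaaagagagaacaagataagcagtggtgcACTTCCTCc
Fcgr4: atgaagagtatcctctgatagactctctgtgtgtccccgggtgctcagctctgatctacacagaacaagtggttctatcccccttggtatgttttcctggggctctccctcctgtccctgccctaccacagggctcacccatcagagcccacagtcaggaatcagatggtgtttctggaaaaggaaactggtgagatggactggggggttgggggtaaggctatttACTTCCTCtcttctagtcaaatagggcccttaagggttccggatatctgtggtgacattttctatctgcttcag
Ly6c2: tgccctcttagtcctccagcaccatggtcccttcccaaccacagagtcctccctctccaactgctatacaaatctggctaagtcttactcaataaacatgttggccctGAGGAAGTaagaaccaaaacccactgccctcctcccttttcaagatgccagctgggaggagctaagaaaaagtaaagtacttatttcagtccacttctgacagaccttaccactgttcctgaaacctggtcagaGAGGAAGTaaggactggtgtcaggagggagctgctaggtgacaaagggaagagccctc

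The letters GAGGAAGT began at -142 and -8 from the start of Ly6c2 on the printed strand, and stood on the other strand at 42 in Adgre4 and at -24 in Fcgr4. Ace held GGGCGGGG at -136 and -75, and Treml4 held neither. Of the 22 genes of the patrolling list, 18 had a window in the RefSeq table, and GAGGAAGT was in 3 of them (Adgre4, Cd300ld and Fcgr4), against 3.69% of all 27025 genes with a window. It was in 0 of the 9 genes with a window among the 12 with the highest fold change, and in 4 of the 9 genes with a window among the 12 with the lowest (F13a1, Glp2r, Ly6c2 and Retnla). GGGCGGGG was in 4 (Ace, Dusp16, Nr4a1 and Pou2f2), against 19.6% of all genes. The letters AAAGGTCA, which Nr4a factors are known to read, ATGCAAAT, the octamer of Pou2f2, and TTGCNNCAA of C/EBP factors were in none of the 18, against 1.70%, 1.97% and 2.38% of all genes. These matches describe the letters of the windows and say nothing of binding.

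The main comparison set patrolling against classical monocytes within the same libraries, with each gate's UMIs summed per library and the library kept as a block. Patrolling monocytes carried more Cd300e, Spn, Pecam1, Itgal, Fcgr4, Pparg and Fabp4 than the classical gate, and less Retnla, Lyz1, F13a1, Fn1, Ciita and H2-DMb1. Of 6039 genes tested with edgeR's quasi-likelihood test and Benjamini-Hochberg adjustment, 1066 were higher (17.7%) and 1046 were lower (17.3%) at an adjusted p of 0.05, and the median log2 fold change over all genes was 0.01. These shares are the background for the counts of genes called in each list below, and a count near them is no result about its list. The p-values measure the spread between 4 libraries, which came from 2 cohorts of 3 mice sampled at 2 times. Without P-HC24 the counts were 686 higher and 631 lower, and in cells thinned to 3000 UMIs they were 502 and 506 of 2791 genes, of which 969 were called in the same direction in all cells. Without the outlying barcodes 962 and 976 of 5716 genes were called, 1815 of them in the same direction as before.

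The classical gate was itself mixed. A Ly6c2 UMI was present in 22 of 30, 27 of 59, 60 of 79 and 14 of 44 classical monocytes, and the summed level of Retnla in that gate was 1986, 13097, 5731 and 23877 CPM, highest where the share with Ly6c2 was lowest. Ly6c2 was therefore required in classical monocytes as an alternative, which left 937 genes higher and 904 lower of 4956 tested, with 1517 of these 1841 called in the same direction in both fits.

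Identity genes of patrolling monocytes came out together. All 20 tested genes of a list of 22 were higher in patrolling than in classical monocytes, with a median log2 fold change of 3.12, and the same 20 were called with Ly6c2 required, in thinned cells and without the outlying barcodes. The list was written from knowledge of this cell type with earlier results of these data known, so its direction is not independent evidence. Adgre4 stood at 1308, 1342, 1271 and 1435 CPM in patrolling monocytes and at 126, 36.5, 74.6 and 20.7 CPM in classical monocytes. The gates did not overlap, and the fitted log2 fold change was 4.49 ± 0.33 (SE, adjusted p = 4.34e-06). Eno3 stood at 153, 253, 305 and 306 against 4.66, 3.04, 2.63 and 3.66 CPM, a log2 fold change of 6.13 ± 0.29 (adjusted p = 1.56e-07). It was the sole glycolytic enzyme of its list that was higher.

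Cd300e, an activating receptor of the Cd300 family, stood at 340, 419, 378 and 488 CPM against 0, 1.01, 1.76 and 1.22 CPM. The log2 fold change was 8.10 ± 0.31 (adjusted p = 3.15e-08), and a Cd300e UMI was present in 68.1%, 85.7%, 62.5% and 77.8% of patrolling monocytes against 0 to 2.53% of classical monocytes and 0 to 0.0793% of B cells. Spn, the sialoprotein CD43 used to sort these cells, stood at 446, 399, 374 and 414 against 30.3, 22.3, 17.6 and 12.2 CPM (log2 fold change 4.24 ± 0.21, adjusted p = 2.52e-07). Dusp16, a phosphatase of MAP kinases, was at 1759 ± 440 CPM (SD, n = 4 libraries) against 103 ± 23.3 CPM, and Pglyrp1, a peptidoglycan-binding protein, at 547 ± 146 against 17.3 ± 4.21 CPM. Nr4a1 differed less, with 993, 1288, 859 and 902 CPM against 427, 388, 249 and 276 CPM (log2 fold change 1.51 ± 0.14, adjusted p = 1.71e-05). The smallest differences of the list were those of Clec4a3, a C-type lectin (1.16), and Cd300a, an inhibitory receptor (1.32), on the log2 scale.

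**Figure D3:**
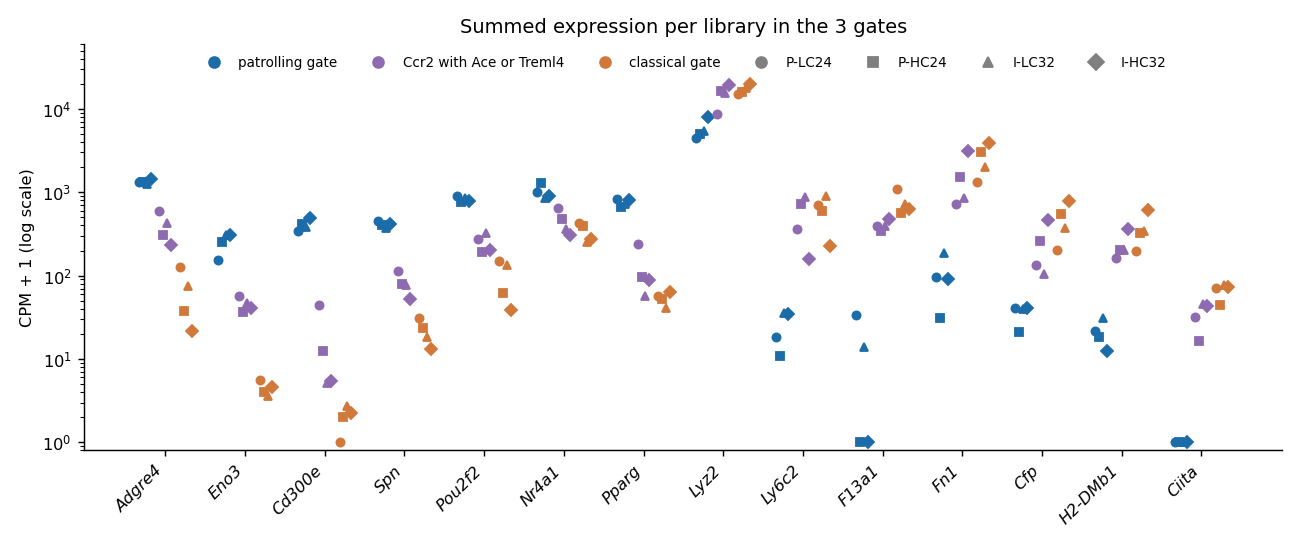
CPM plus 1 (log axis) of 14 genes in patrolling monocytes (blue), cells with Ccr2 and Ace or Treml4 (purple) and classical monocytes (orange), with 1 marker per library. Adgre4, Eno3, Cd300e, Spn, Pou2f2, Nr4a1 and Pparg are higher in patrolling monocytes in every library, for example 1271 to 1435 CPM against 20.7 to 126 CPM for Adgre4. Lyz2, Ly6c2, F13a1, Fn1, Cfp, H2-DMb1 and Ciita are lower in every library.

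The 12 genes with the largest fitted log2 fold change among those called, with the same sign in every library and at least 50 CPM on average in the higher gate, were Ccdc192, Cd300e, Tgm3, Vegfc, Dnah12, Eno3, Lilra5, G0s2, Slc12a2, Pecam1, S1pr5 and Pglyrp1. Ccdc192, a coiled-coil gene, stood at 88.8, 96.6, 125 and 96.4 CPM and had 0 UMIs in classical monocytes, which makes it at least 110-fold higher over the libraries together if 3 counts are allowed for a count of 0. Tgm3, a transglutaminase, had 31.3, 61.9, 42.9 and 73.7 CPM against 0 UMIs, at least 53.5-fold higher by the same rule. Its relative Tgm2 was at 399 ± 145 against 37.8 ± 9.62 CPM. Vegfc, a growth factor of lymphatic vessels, stood at 108, 168, 103 and 164 CPM against 4.66, 0, 0 and 0 CPM (log2 fold change 7.26 ± 0.56, adjusted p = 4.91e-06). Lilra5, an activating leukocyte receptor, stood at 114 ± 33.0 CPM (68.7 to 147 CPM) against 0 to 2.44 CPM, and S1pr5, the sphingosine-1-phosphate receptor through which patrolling monocytes are known to leave bone marrow, at 113, 146, 77.3 and 102 against 0.878 to 9.33 CPM. G0s2, an inhibitor of fat breakdown, and Slc12a2, an ion cotransporter, were at 125 ± 67.0 and 250 ± 91.4 CPM against 2.09 ± 0.783 and 4.43 ± 3.50 CPM. Dnah12, a dynein heavy chain, was at 180 ± 85.2 against 1.34 ± 1.58 CPM.

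Transcription factors split in both directions, with 10 of 24 tested factors higher, 6 lower and a median of 0.01 on the log2 scale. Over all tested genes 17.7% were higher and 17.3% lower. Pou2f2, an octamer factor best known from B cells, was at 904, 760, 842 and 788 CPM against 149, 60.9, 134 and 37.8 CPM (log2 fold change 3.16 ± 0.25, adjusted p = 5.94e-06). Hes1, a target of Notch signalling, was 2.77 ± 0.25 higher on the log2 scale, Tcf7l2, a factor of Wnt signalling, 2.50 ± 0.24, and Bcl6, a repressor, 1.95 ± 0.21. Notch2, the receptor known to guide the conversion of classical into patrolling monocytes, was at 441 ± 27.6 against 213 ± 28.4 CPM, and the myeloid factors Spi1, Cebpb, Klf2 and Klf4 were higher by 0.95, 0.83, 0.58 and 0.61. Rbpj, the DNA-binding partner of Notch, went the other way, at 78.4, 69.3, 34.4 and 28.4 CPM against 184, 400, 293 and 567 CPM. Maf, a factor of macrophages, was lower by a log2 fold change of -1.96, and Cebpa, Cebpd and Nr4a2 by -1.62, -1.06 and -0.96. The Nr4a2 call was lost with Ly6c2 required (-0.27), and under that setting Nr4a3 turned from -0.85 to 1.29 and Id2 from -0.68 to 0.70. The Klf2 and Klf4 calls did not hold when P-LC24 or I-LC32, and P-HC24 or I-LC32, respectively, were left out.

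Genes of adhesion and movement were mostly higher, 10 of 18 tested against 4 lower, with a median of 0.89. Itgal, the alpha chain of LFA-1 on which patrolling along vessels depends, stood at 1191, 1045, 816 and 1134 CPM against 238, 92.3, 129 and 36.6 CPM (log2 fold change 3.17 ± 0.31, adjusted p = 2.48e-05). Its partner chain Itgb2 was 0.84 ± 0.16 higher, Itga4 1.55 ± 0.22, Itgb1 0.93 ± 0.15 and Itgax 2.22 ± 0.29. Pecam1, an adhesion molecule shared with endothelium, was at 244, 466, 408 and 686 against 21.0, 16.2, 9.66 and 3.66 CPM. Cxcr4 and Cx3cr1, chemokine receptors of marrow retention and of vessel-bound monocytes, were higher by 2.18 and 1.83. Among the lower genes were the chemokine receptor Ccr1 (-1.63) and the integrin chain Itgb7 (-0.83). With Ly6c2 required 10 of 17 genes were higher and 2 lower. Ccr1 was called less firmly, losing the call without P-HC24, I-LC32 or I-HC32.

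Fc receptors and paired immune receptors changed by member. Fcgr4 was at 651, 518, 545 and 516 CPM against 83.9, 51.8, 52.7 and 61.0 CPM (log2 fold change 3.08 ± 0.16, adjusted p = 4.14e-07), and at a log2 fold change of 2.76 without the outlying barcodes. The other Fc gamma receptors of the list were lower, with log2 fold changes of -1.93 for Fcgr1, -1.73 for the inhibitory Fcgr2b and -1.73 for Fcgr3. Of the 22 tested genes of this list 12 were higher and 6 lower, with a median of 0.74. Pilra (1.40), Clec4a1 (1.24) and Cd300ld (2.28) were higher, and Clec4a2, known as the inhibitory receptor Dcir, was at 20.9, 9.91, 21.5 and 17.0 CPM against 263, 164, 132 and 182 CPM (log2 fold change -3.56 ± 0.27, adjusted p = 4.43e-06). In the Trem family, to which Treml4 belongs, Trem1 and Trem3 were higher by 2.17 ± 0.27 and 2.45 ± 0.20 and Trem2 was lower by a log2 fold change of -1.89 ± 0.33. The signalling adaptors of the family had values of -0.20 for Tyrobp and 0.24 for Hcst, neither of which passed the test. Of the peptidases and receptors of the renin-angiotensin system beside Ace, 1 was tested, the aminopeptidase Lnpep, and it was higher (1.19 ± 0.15, adjusted p = 0.000115). Agt, Ren1, Agtr1a, Agtr2, Mme and Enpep had 0 UMIs in patrolling monocytes.

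Survival genes and growth receptors were mostly higher, with 11 of 18 tested genes higher, 1 lower and a median of 1.08. Bcl2, which blocks apoptosis, was at 286, 218, 236 and 318 CPM against 76.9, 49.7, 26.3 and 37.8 CPM (log2 fold change 2.42 ± 0.24, adjusted p = 2.31e-05). Bcl2a1a, Bcl2a1b and Bcl2a1d, near-identical copies among which reads may be split, were higher by 1.63, 1.52 and 1.63, and the pro-apoptotic Bax was the gene that was lower (-0.70), a call lost without P-HC24 (-0.62) or I-HC32 (-0.58). The receptors Tgfbr1 (2.33), Tnfrsf1b (1.95), Tgfbr2 (1.49), Il10ra (1.47), Ifngr1 (0.84) and Il6ra (0.71) were higher. Csf3r, the receptor of granulocyte colony-stimulating factor, was higher by 1.32 in all cells and by 0.42 without the outlying barcodes, where it was not called.

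Classical identity genes were lower, 12 of 17 tested against 2 higher, with a median of -1.93. Ly6c2 stood at 17.4, 9.91, 34.4 and 34.0 CPM in patrolling monocytes and at 711, 588, 892 and 228 CPM in classical monocytes (log2 fold change -4.93 ± 0.33, adjusted p = 2.36e-06), and reads of this gene may be shared with its close copy Ly6c1. F13a1, a subunit of clotting factor XIII, stood at 33.1, 0, 12.9 and 0 CPM against 1107, 562, 723 and 623 CPM (log2 fold change -5.96 ± 0.40). Fn1, fibronectin, stood at 95.8, 29.7, 185 and 90.7 CPM against 1338, 3063, 2008 and 3894 CPM (-4.76 ± 0.44). Vcan, a matrix proteoglycan, and Chil3, a chitinase-like protein, had log2 fold changes of -4.42 and -2.29. Sirpb1c (0.77) and Clec4e (1.17) were the 2 genes of the list that were higher, and with Ly6c2 required they stood at -0.12 and 0.41 without a call. Plac8, Hp and Tppp3 were not called (-0.34, -0.12 and 0.26).

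The 12 genes with the lowest log2 fold change under the same rule were Retnla, Fcrls, Dab2, Cd226, Ciita, Lyz1, Mrc1, F13a1, Ccl24, Ecm1, Ly6c2 and Glp2r. Retnla, a secreted product of alternatively activated macrophages, stood at 0, 9.91, 0 and 0 CPM in patrolling monocytes against 1986, 13097, 5731 and 23877 CPM (-11.64 ± 0.35, adjusted p = 8.61e-09). Fcrls, a receptor of resident macrophages, Dab2, an adaptor of endocytosis, and Cd226, an activating receptor, had 0 UMIs in patrolling monocytes, so they were at least 174-fold, 68.7-fold and 81.6-fold lower over the libraries together. Lyz1 and Mrc1, the mannose receptor, were at 21.5 ± 42.9 and 3.25 ± 4.16 CPM against 2447 ± 2760 and 364 ± 226 CPM. Only F13a1, Ly6c2 and Glp2r, the receptor of glucagon-like peptide 2, were still tested among these 12 when Ly6c2 was required in classical monocytes. F13a1 and Glp2r stayed lower (-6.40 and -4.59). The Ly6c2 value (-5.94) was fixed by that requirement and is no result. The other 9 fell below the filter on low counts in that comparison.

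Genes of MHC class II presentation were lower in 8 of 9 tested cases, with a median of -4.05. Ciita, the master regulator of these genes, had 0 UMIs in patrolling monocytes and 69.9, 43.6, 76.4 and 71.9 CPM in classical monocytes. H2-DMb1, which loads peptides onto class II molecules, was at 20.9, 17.3, 30.1 and 11.3 CPM against 198, 325, 343 and 614 CPM (-4.05 ± 0.30, adjusted p = 4.43e-06). Cd74, the invariant chain, was at 1008, 436, 902 and 794 against 2719, 8647, 7316 and 15958 CPM (-3.40 ± 0.43, adjusted p = 0.000135). With Ly6c2 required, 4 of 8 tested genes stayed lower, H2-DMb1 at -2.56 among them, and H2-Aa (-0.95), H2-Eb1 (-0.78) and Cd74 (-0.62) were no longer called.

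Complement genes were lower in 6 of 9 tested cases and higher in 1, with a median of -1.90. Cfp, properdin, which stabilises the alternative pathway, was at 40.1, 19.8, 38.6 and 39.7 CPM against 203, 547, 376 and 788 CPM (-3.67 ± 0.34, adjusted p = 1.72e-05). C5ar1, the receptor of the C5a fragment, was the gene that was higher (1.17 ± 0.20), and C3ar1, that of C3a, was lower (-3.42 ± 0.43). C1qa, C1qb and C1qc had log2 fold changes of -2.68, -2.70 and -1.90, and with Ly6c2 required they turned to 1.61, 1.72 and 1.96, not called. These 3 genes also lost the call without P-HC24. With Ly6c2 required 3 of the 9 genes were lower and 1 higher.

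Cytokines and chemokines were lower in 8 of 15 tested cases and higher in 2, with a median of -1.61. Il1b was higher, at 1391, 2018, 1065 and 1809 CPM against 532, 789, 475 and 468 CPM (1.36 ± 0.13, adjusted p = 2.48e-05). Tnf was higher as well (1.30 ± 0.36), at 27.9, 27.2, 133 and 113 CPM, and lost the call without I-LC32 (0.73). The chemokines Ccl24 (-5.33), Ccl2 (-3.10), Ccl9 (-2.27) and Ccl6 (-2.24) and the matrix protein Thbs1 (-2.55) were lower. With Ly6c2 required 10 genes of the list were tested, 2 of them higher and 5 lower. Interferon-stimulated genes were lower in 9 of 13 tested cases, with a median of -1.45, among them Ifi211 (-2.44), Xaf1 (-2.10), Isg15 (-1.90) and Bst2 (-1.62). Ly6e was the gene that was higher (0.58), and with Ly6c2 required it stood at -0.11. Of 14 sensors of nucleic acids and their partners, 3 endosomal receptors were higher, Tlr7 (1.81 ± 0.32), Tlr13 (1.52 ± 0.34) and, with the weakest call, Tlr8 (1.09 ± 0.37, adjusted p = 0.0397), and 5 genes were lower, among them Unc93b1 (-1.15), the chaperone that carries such receptors, and Sting1 (-1.64). Their median was 0.00, and of all tested genes 17.7% were higher and 17.3% lower.

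Lipid-handling genes were split, 7 higher and 6 lower of 24 tested, with a median of -0.11, where 17.7% of all tested genes were higher and 17.3% lower. Pparg, the nuclear receptor of fatty acid uptake, was at 831, 661, 717 and 805 CPM against 56.0, 51.8, 40.4 and 62.2 CPM (3.74 ± 0.17, adjusted p = 1.28e-07). Fabp4, a fatty acid carrier and known Pparg target, was at 266, 235, 245 and 301 CPM against 0, 8.12, 9.66 and 18.3 CPM (4.62 ± 0.35, adjusted p = 4.43e-06). The uptake receptors Olr1 (2.41) and Cd36 (1.04), the cholesterol exporter Abcg1 (1.43), Apoe (1.17) and Scarb1 (0.94) were also higher. Lpl (-3.04), Msr1 (-2.18), Npc2 (-1.93), Trem2 (-1.89) and Pltp (-1.20) were among the lower genes. Pltp, a phospholipid transfer protein, turned to 2.32 with Ly6c2 required, and Abca1 moved from -0.06 to 0.84.

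Genes of the lysosome and of energy metabolism were lower by smaller amounts. Of 19 lysosomal and antimicrobial genes 11 were lower and 3 higher, with a median of -0.61. Lyz2, lysozyme, stood at 4414, 4998, 5483 and 8007 CPM against 15190, 15901, 17743 and 19634 CPM (-1.71 ± 0.06, adjusted p = 3.15e-08), and its close copy Lyz1 may take some of its reads. Ctsb (0.63), Cst3 (0.65) and Cybb (0.65) were the 3 higher genes. Of 20 genes of oxidative phosphorylation 14 were lower and 0 higher, with a median of -0.63, from Uqcrb (-1.07) to Uqcrh (-0.43). Of 17 glycolytic genes 9 were lower, from Eno1 (-0.95) to Pgk1 (-0.51), and Eno3 was higher, with a median of -0.54. With Ly6c2 required 5 of 14 were lower and 1 higher. In thinned cells and with the other settings several of the smallest of these calls, such as Pgk1, Cox5a and Uqcrh, were lost. Cell cycle genes were near the floor of the counts. Of 15 listed, 5 were tested, 3 of which were lower, and Mki67 was at 15.7, 7.43, 4.29 and 0 CPM.

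Among stress genes that digestion is known to induce, immediate early genes were called on both sides and heat shock genes on the lower side only. Of 14 immediate early genes 3 were higher and 4 lower, with a median of 0.18. Of 9 heat shock genes 0 were higher and 3 lower, with a median of -0.05. These counts stand beside shares of 17.7% higher and 17.3% lower over all tested genes. Jun (0.99), Ier2 (0.88) and Btg2 (0.49) were higher, and Fos (-0.47), Atf3 (-0.74), Ier3 (-1.86) and Egr2 (-1.98) were lower. The Btg2 call did not hold without the outlying barcodes (0.27), and the Fos call did not hold without P-HC24 (-0.46) or I-HC32 (-0.35). With Ly6c2 required 6 of 13 immediate early genes were higher and 3 lower, and 2 of 8 heat shock genes were higher and 2 lower. Neutrophil markers (3 tested, 3 higher) and erythroid markers (4 tested, 4 higher) were also called in patrolling monocytes, and without the outlying barcodes 0 of 1 tested neutrophil marker and 1 of 4 erythroid markers were. Of 3 tested B cell markers 1 was higher, and 0 of 2 without the outlying barcodes.

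**Figure D4:**
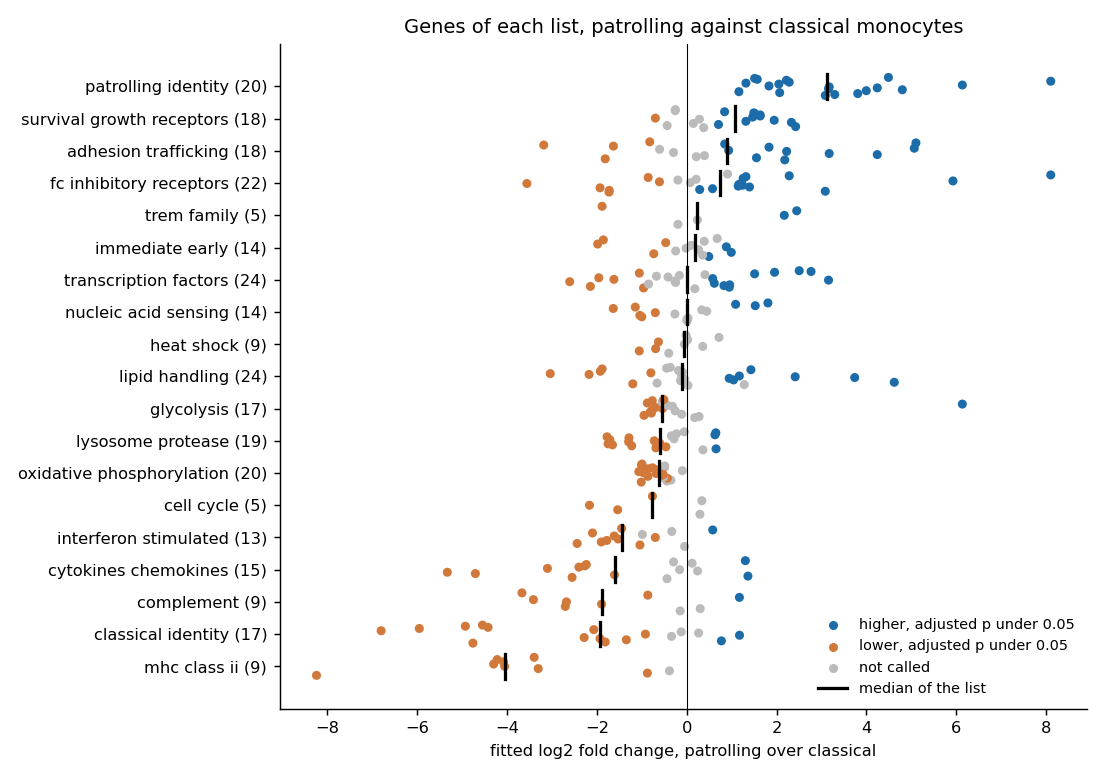
Fitted log2 fold change (horizontal axis, patrolling over classical) of each tested gene of 19 lists, with the number of tested genes in brackets and the median as a black bar. Blue points were higher and orange points lower at an adjusted p of 0.05. The medians run from 3.12 for patrolling identity to -4.05 for MHC class II.

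Cells with Ccr2 and also Ace or Treml4 lay between both gates for many of the genes called. Of the 2112 genes called between patrolling and classical monocytes, their CPM lay between the gates in 73.3%, 66.8%, 70.1% and 64.3% by library. For 599 genes (28.4%) it did so in all 4 libraries. The 2112 genes were picked because the gates differ in the same sums, which by itself favours values between them. The share among all tested genes was not computed. The percentages therefore do not show that cells with Ccr2 and Ace or Treml4 are intermediate. Adgre4 was at 589, 303, 428 and 229 CPM in these cells, and Spn at 112, 78.0, 76.3 and 51.2 CPM. Cd300e stood at 42.9, 11.3, 4.09 and 4.45 CPM, nearer to the classical than to the patrolling level in every library and above the classical level in all 4. When patrolling monocytes were set against these cells in place of classical monocytes, a comparison added after the data had been seen, 682 genes were higher (11.3%) and 748 were lower (12.4%) of 6048 tested. Both comparisons use the same patrolling sums.

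The diet comparisons were made within patrolling monocytes. Prog set P-HC24 against P-LC24 at week 24 and Int set I-HC32 against I-LC32 at week 32, and each rests on 1 library a side, so ratios of CPM are given with exact intervals for counting error and no test. Prog and Int share mice within each cohort. All 22 genes of the patrolling list had at least 50 UMIs in both comparisons, and 0 were 2-fold apart in either. Over all genes compared, 0.887% were 2-fold higher and 2.22% 2-fold lower in Prog, and 2.49% and 2.43% in Int, so a count of 0 among 22 genes is near the background and is no result about the list. Adgre4 differed by a log2 ratio of 0.04 (interval -0.12 to 0.20) in Prog and 0.17 (-0.07 to 0.42) in Int, Nr4a1 by 0.38 (0.20 to 0.55) and 0.07 (-0.24 to 0.38), and Pparg by -0.33 (-0.55 to -0.11) and 0.17 (-0.17 to 0.50).

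In Prog, 3384 genes had at least 50 UMIs over both libraries, of which P-HC24 had 30 higher (0.887%) and 75 lower (2.22%) by 2-fold or more. The genes with the highest ratio and detection in at least 10% of cells where they were higher were Gfod1, Rnf2, Sec63, Rtn1 and Gstm1. Gfod1, an oxidoreductase-like gene, was at 50.5 CPM in P-LC24 and 139 CPM in P-HC24 (29 and 56 UMIs), a log2 ratio of 1.46 (0.79 to 2.16), and at 85.9 and 136 CPM in the week 32 libraries. Sec63, a part of the protein entry channel of the endoplasmic reticulum, was at 54.0 and 144 CPM (1.41, 0.76 to 2.09). These ratios rest on small counts, 58 UMIs at most on the higher side.

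A few barcodes held much of the counts behind the lowest ratios in Prog. Sox5, a factor of neural and cartilage development, and Cadm1, an adhesion molecule, had 59 and 95 UMIs in P-LC24 against none in P-HC24, at least 13.8-fold and 22.3-fold lower, and without the outlying barcodes they fell to 15.7 and 6.72 CPM in P-LC24. Fcrl5, a receptor of B cells, was at 85.3 and 12.4 CPM, and at 2.24 and 2.86 CPM without those barcodes. Of the 105 Lpl UMIs in P-LC24, 78 lay in 1 cell, and Grap2, an adaptor of T cell signalling, was at 90.6 and 19.8 CPM (-2.19, -3.48 to -1.11). MHC class II genes were lower in P-HC24 in the same way, with H2-Ab1 at 154 and 29 UMIs, 98 of the 154 in 1 cell. Without the outlying barcodes 26 genes were higher and 55 lower of 2934 compared.

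Of the immediate early genes, 2 of 12 compared were at least 2-fold lower in Prog and 1 of 13 in Int, and 0 were 2-fold higher. Over all genes compared, 2.22% were 2-fold lower and 0.887% higher in Prog, and 2.43% and 2.49% in Int. Counts as small as 1 of 13 and 0 cannot be told from that background. Fos, which encodes a subunit of the AP-1 factor, was at 1060, 433, 1456 and 697 CPM, a log2 ratio of -1.29 (-1.54 to -1.05) in Prog and -1.06 (-1.37 to -0.76) in Int. Atf3 was at 286, 124, 344 and 215 CPM (-1.21 in Prog and -0.67 in Int), and Dusp1 at 1214, 629, 1572 and 1032 CPM (-0.95 in Prog and -0.61 in Int). Classical monocytes showed the same order of libraries for Fos, at 1324, 568, 1634 and 1068 CPM. Without the outlying barcodes the Fos ratio was -1.15 in Prog and -0.84 in Int. Genes of this kind are known to respond to digestion, which was done once per library, and the part of handling in these ratios was not tested.

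In Int, 1565 genes were compared, 39 of them at least 2-fold higher in I-HC32 (2.49%) and 38 at least 2-fold lower (2.43%). Ifi27l2a, an interferon-stimulated gene, was at 608, 654, 773 and 102 CPM, so that I-HC32 stood apart from the other 3 libraries. It had 18 UMIs in 10 of 27 cells of I-HC32 and 180 UMIs in 24 of 32 cells of I-LC32, a log2 ratio of -2.92 (-3.71 to -2.22), and -3.23 without the outlying barcodes. Classical monocytes had 2173, 2101, 1809 and 1346 CPM, again lowest in I-HC32. Lrrk2, a kinase of lysosomal trafficking, was at 132, 173, 98.8 and 323 CPM (1.71, 0.99 to 2.48), with 19 of its 57 UMIs in I-HC32 in 1 cell. N4bp2l1, Acss1 and Btaf1 followed with log2 ratios of 1.53, 1.51 and 1.51. Bcl6 was at 301, 265, 210 and 499 CPM (1.25, 0.73 to 1.78), and Hsp90ab1, a chaperone, at 1125, 944, 829 and 1826 CPM (1.14, 0.88 to 1.40).

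The other extreme ratios in Int rested on counts of a few barcodes. S100a8 had 51 UMIs in I-HC32, 49 of them in 1 cell, and 0 in I-LC32. Ccl5, a chemokine of lymphocytes, had 56 UMIs in I-LC32, 53 of them in 1 cell, and 0 in I-HC32. Negr1 had 127 and 0 UMIs, at least 32.1-fold lower, and 5.52 and 0 CPM without the outlying barcodes. Others were C1qb, with 96 and 1 UMIs (-6.18, -11.50 to -3.67), and Fmnl2, a formin of the cytoskeleton, with 60 and 4 UMIs, 27 of the 60 in 1 cell. Haemoglobin genes were lower in I-HC32 by log2 ratios from -8.16 to -6.35, where 0 barcodes were haemoglobin-rich. Without the outlying barcodes Hbb-bs, a beta globin gene, was at 381 and 75.7 CPM (-2.33, -3.31 to -1.46), and the other 3 haemoglobin genes had fewer than 50 UMIs. Without the outlying barcodes 25 genes were higher and 22 lower of 1353 compared. Of the 39 higher genes 33 were still compared and 17 still at least 2-fold higher. Of the 38 lower genes 18 were still compared and 13 still at least 2-fold lower.

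**Figure D5:**
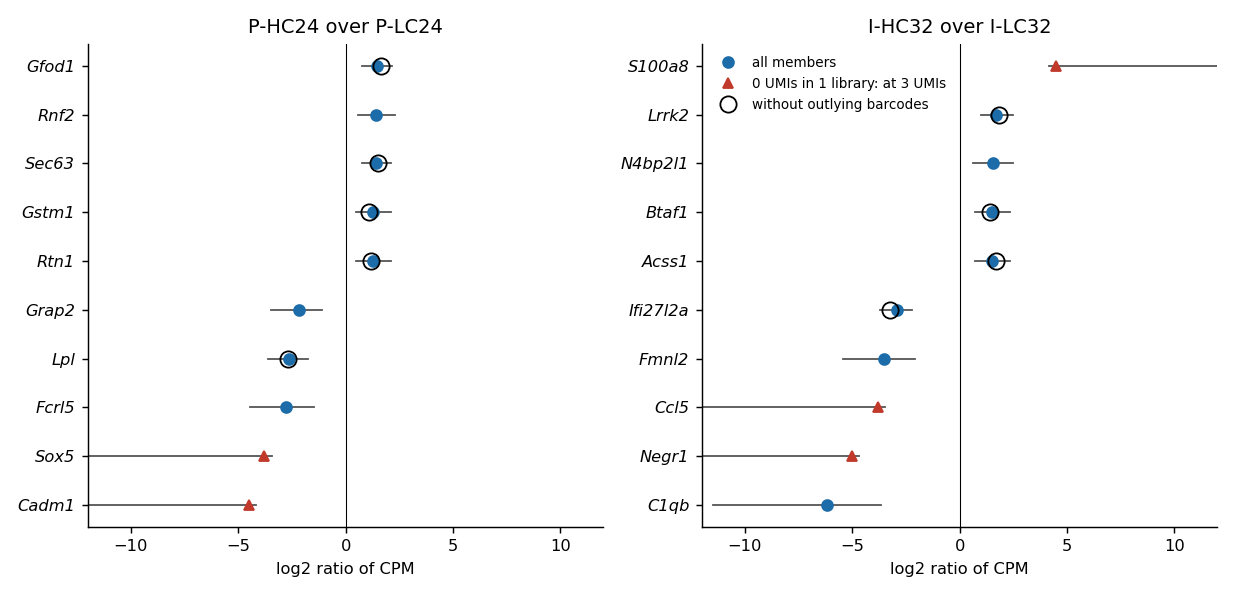
Log2 ratio of CPM (horizontal axis) in patrolling monocytes with exact 95% intervals for the 5 highest and 5 lowest genes of Prog (P-HC24 over P-LC24) and of Int (I-HC32 over I-LC32). Triangles mark genes with 0 UMIs in 1 library, set at 3 UMIs, and open circles the ratio without the outlying barcodes. Ifi27l2a lies at -2.92 in Int and stays low without these barcodes.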

How the data were processed

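Single-cell RNA was captured from pooled FNA biopsies in 4 libraries. Per the labels' processing notes the authors used Cell Ranger 9.0.1 and Seurat 5.3 with GRCm39. The deposited matrices hold raw UMI counts of 33696 genes per barcode, and the features and barcodes that name their rows and columns were deposited beside them. The authors' correction for free RNA, filtering and integration were not repeated here, and no deposited cell annotation was used.

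Members and gene lists were chosen with earlier results of these data known. Cells were gated on counts with pandas 2.3.3, numpy 2.4.6 and scipy 1.17.1 under Python 3.11.15. Doublets were kept, since 6 of the 191 members were among the barcodes with the highest scores of Scrublet in scanpy 1.11.5 at 0.8% per 1000 cells, and leaving them out was an alternative. B cells were barcodes within the limits on cells that held at least 2 Cd79a UMIs and no Csf1r UMI. UMIs were summed per library and gate and tested in R 4.3.3 with edgeR 4.0.16 (TMM scaling, filterByExpr, quasi-likelihood test, library as a block, adjusted p under 0.05, the 8 gate genes left out), and DESeq2 1.42.0 was an alternative. The scripts were tested on simulated data. Diet comparisons used ratios of CPM with 95% exact conditional binomial intervals, at least 50 UMIs over both libraries and a 2-fold limit. Intervals cover counting error only, and a count of 0 was taken as 3 UMIs over the group. Named genes were the 12 highest and 12 lowest called fold changes with one sign in all libraries and at least 50 CPM in the higher gate, the members of 32 lists (12 of them markers of other cells), and the 5 highest and 5 lowest diet ratios with a UMI in at least 10% of cells. Negr1-rich, S100a8 and S100a9-rich and haemoglobin-rich barcodes, St8sia4 and genes described only for these barcodes were picked after their values were seen. Alternatives also changed the limits on cells, the thinning, the classical gate, the filter and scaling, and left out each library. Promoter windows came from RefSeq for GRCm38.p6. Results of a few list members are not reported here.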

Additional observations from a re-analysis of the deposited data

Results flagged for a closer look

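St8sia4, a sialyltransferase that builds polysialic acid, moved in opposite directions in patrolling monocytes in the 2 diet comparisons. It stood at 329 CPM in P-LC24 and 151 CPM in P-HC24, and at 193 CPM in I-LC32 and 397 CPM in I-HC32, a log2 ratio of -1.12 (interval -1.56 to -0.70) in Prog and 1.04 (0.48 to 1.61) in Int. Without the outlying barcodes the ratios were -0.93 and 0.53, and 22 of its 70 UMIs in I-HC32 lay in 1 cell. Cxcl2, a chemokine for neutrophils, moved the other way round, with 101, 208, 365 and 176 CPM in that order of libraries and log2 ratios of 1.04 in Prog and -1.05 in Int. Its counts were concentrated, since 1 cell held 28 of 58, 29 of 84, 64 of 85 and 24 of 31 UMIs in the 4 libraries. The difference between Prog and Int was not tested for either gene, because each ratio rests on 1 library a side.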

How the results depend on the processing

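The gate depends on depth and on what the classical gate holds, and each diet comparison has 1 library a side. The patrolling share of cells was 1.91% in P-HC24 and 0.745% in I-LC32 with a mitochondrial limit of 5%, where fewer cells stayed in the denominator, and 0.992% in P-LC24 without the outlying barcodes. The share of gated monocytes in P-LC24 was 58.0% when thinned cells were gated. The counts of genes higher and lower in patrolling monocytes were 502 and 506 in thinned cells, where fewer genes were tested, and 703 and 683 without cells that held a UMI of 5 lymphocyte and neutrophil genes. Leaving out each library in turn gave 686 to 1012 higher and 631 to 1064 lower, both lowest without P-HC24. Library sizes without TMM moved the median of all genes from 0.01 to 0.10 on the log2 scale and gave 1214 higher and 878 lower, DESeq2 gave 781 and 795, and no filter beyond 1 UMI gave 1056 and 1456.

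In Prog the counts were 157 higher and 336 lower at a minimum of 20 UMIs, 3 and 8 at 200 UMIs, and 216 and 345 at 1.5-fold. In Int they were 197 and 201, 2 and 5, and 173 and 125, with 25 and 22 without the outlying barcodes and 24 lower with at least 2 UMIs of Ace plus Treml4. Of 4878 comparisons for 316 named genes, 4552 kept direction and side of the threshold, 252 lost the call, 61 gained it and 13 turned. With Ly6c2 required in classical monocytes Pltp turned to 2.32, Nr4a3 to 1.29, Abca1 to 0.84, C1qa to 1.61, C1qb to 1.72, C1qc to 1.96, Ccl4 to 0.80, Id2 to 0.70, Ly6e to -0.11, Tubb5 to 0.11, Hsp90ab1 to 0.46 and Sirpb1c to -0.12 (-0.039 in thinned cells). With Ly6c2 required, Pltp, Hsp90ab1, Nr4a3, Abca1, Id2 and Ccl4 were called higher (edgeR adjusted p from 0.000911 to 0.0348). The other genes that turned under that setting were not called. The cause of these turns was not tested. Patrolling and classical monocytes were paired by library, and without the library block 1041 genes were higher and 1023 lower. Between conditions no paired analysis was possible because each had 1 library.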
